A study of Mus musculus with 8 samples.

Results

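The galectins and the galectin-3 binding protein were followed at the mRNA level in mouse pancreatic ductal adenocarcinoma cells with and without the O-glycan chaperone gene C1galt1c1. The 7 genes are Lgals1, Lgals2, Lgals3, Lgals4, Lgals8, Lgals9 and Lgals3bp, taken by name from a table of 49315 gene identifiers, and all 7 had a row. The KO group held the C1galt1c1-KO cultures of the lines 6694c2, 2838c3, 6499c4 and 6419c5, labelled Tn, and the WT group the parental culture of each line. All 8 cultures were grown in the same serum-containing medium and had no other treatment. The lines are known as clonal lines grown out of tumours of an engineered mouse model of pancreatic cancer, so each stands for a single tumour clone. Whether a KO culture was a clone or a pool of edited cells is not stated in the labels. Each line gave 1 KO and 1 WT library of polyadenylated RNA, so no difference between KO and WT inside a single line can be tested, and genotype tests use the spread between the 4 lines.

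Galectins are small lectins without a signal peptide that bind beta-galactosides, both inside cells and on glycoproteins outside them after unconventional secretion. They fall into prototype members with a single carbohydrate-recognition domain, tandem-repeat members with a pair of such domains, and galectin-3, which joins a single domain to a long flexible tail. C1galt1c1 encodes a chaperone for the enzyme that adds galactose to the first sugar of an O-glycan, and the Tn antigen is that first sugar without the galactose. Galectins also bind N-acetyllactosamine on N-glycans, which do not need C1galt1c1. In pancreatic cancer galectin-1 is best known from the stroma and galectin-3 and galectin-4 from the epithelial cells.

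Expression is given in TPM, which scales reads by gene length and sets each library to a sum of 1000000. Levels may therefore be compared between genes only as far as the gene lengths used hold, and these are not given. They carry no depth. An estimate from the spacing of low values put the libraries at 40823304 to 62441696 assigned reads, and at that depth the least covered library of a member held about 1434 reads (Lgals8, 6499c4 KO). C1galt1c1 itself was at 10.9, 15.3, 19.0 and 16.1 TPM in the KO libraries of 6694c2, 2838c3, 6499c4 and 6419c5, against 37.0, 40.4, 54.2 and 37.9 TPM in the WT libraries. Identifiers without a gene name and small RNA classes, called structural RNA below, held 13.8% and 10.9% of the KO libraries of 6694c2 and 6419c5. The share was 1.19% to 1.76% in the other 6 libraries. Unnamed identifiers alone, whose RNA class is not known, made up 12.5% and 9.69% of the KO libraries of 6694c2 and 6419c5. A larger share of this kind lowers the share left to every other gene. The epithelial ductal markers summed to between 13359 and 24153 TPM in KO and between 13779 and 20030 TPM in WT libraries, with all 7 markers above 1 TPM in some library. Krt8, Krt18 and Krt19 were each at 2528 TPM or more in every library, and Cdh1 at 541 TPM or more. Krt7 ran from 21.6 to 1397 TPM, Sox9 from 3.79 to 22.0 TPM and Epcam from 1.21 to 44.9 TPM. Of 5 immune markers 1 reached 1 TPM (Cd68), and the list summed to between 8.03 and 28.5 TPM in KO and between 5.83 and 14.4 TPM in WT libraries, with Ptprc at or below 0.151 TPM. The 5 fibroblast and 4 endothelial markers summed to at most 7.12 and 1.14 TPM in KO and to at most 5.46 and 1.16 TPM in WT libraries. Of 7 acinar and islet markers 4 (Cpa1, Ins1, Ins2 and Gcg) were listed at 0 throughout, and the sum lay between 6.33 and 25.0 TPM in KO and between 7.58 and 44.8 TPM in WT libraries.

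On GRCm39, Lgals1 (ENSMUSG00000068220) lies on chromosome 15 at 78810875 to 78814670, and Lgals2 (ENSMUSG00000043501) at 78735060 to 78739939 of the same chromosome, on the minus strand. Lgals3 (ENSMUSG00000050335) lies on chromosome 14 at 47605208 to 47623624, Lgals4 (ENSMUSG00000053964) on chromosome 7 at 28531804 to 28541281, and Lgals8 (ENSMUSG00000057554) on chromosome 13 at 12454282 to 12479840. Lgals9 (ENSMUSG00000001123) and Lgals3bp (ENSMUSG00000033880) lie on chromosome 11, at 78853800 to 78875798 and 118280716 to 118292918. The annotation places Cdc42ep1 on the strand opposite Lgals2, Heatr1 opposite Lgals8 and the long noncoding gene Gm30368 opposite Lgals1. The sources used here do not say whether reads were counted by strand, and the part of Gm30368 in the Lgals1 values was not tested.

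Promoters are shown for 4 members that stand for the patterns reported below: Lgals4 and Lgals3bp, whose levels followed the same order of lines, Lgals2, which had the largest gap between a KO library and its WT library, and Lgals9, whose level differed least between lines. They are RefSeq windows of 300 bases, from 250 before to 50 after the annotated start, on GRCm38.p6. The positions are chr7:28833544-28833843 (plus strand) for Lgals4, chr11:118401910-118402209 (minus strand) for Lgals3bp, chr15:78855480-78855779 (minus strand) for Lgals2 and chr11:78984875-78985174 (minus strand) for Lgals9. Capitals mark matches to any of 7 motifs searched on both strands.
Lgals4: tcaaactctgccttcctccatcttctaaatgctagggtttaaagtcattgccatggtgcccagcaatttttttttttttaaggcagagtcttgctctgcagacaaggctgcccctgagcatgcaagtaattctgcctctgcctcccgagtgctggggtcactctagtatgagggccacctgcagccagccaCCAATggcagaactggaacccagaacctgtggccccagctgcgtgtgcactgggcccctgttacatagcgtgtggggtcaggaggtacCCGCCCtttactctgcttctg
Lgals3bp: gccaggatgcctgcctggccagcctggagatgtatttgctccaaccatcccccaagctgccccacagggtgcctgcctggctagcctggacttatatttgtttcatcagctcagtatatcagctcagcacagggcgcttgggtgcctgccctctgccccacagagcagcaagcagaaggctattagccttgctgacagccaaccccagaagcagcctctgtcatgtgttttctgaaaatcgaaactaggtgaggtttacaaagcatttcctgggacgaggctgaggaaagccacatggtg
Lgals2: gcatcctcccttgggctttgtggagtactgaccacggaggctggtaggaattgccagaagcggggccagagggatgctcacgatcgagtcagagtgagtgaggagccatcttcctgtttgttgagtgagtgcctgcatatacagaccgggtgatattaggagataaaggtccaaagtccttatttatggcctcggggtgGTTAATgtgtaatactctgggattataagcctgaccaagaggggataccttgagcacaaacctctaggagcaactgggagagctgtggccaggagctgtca
Lgals9: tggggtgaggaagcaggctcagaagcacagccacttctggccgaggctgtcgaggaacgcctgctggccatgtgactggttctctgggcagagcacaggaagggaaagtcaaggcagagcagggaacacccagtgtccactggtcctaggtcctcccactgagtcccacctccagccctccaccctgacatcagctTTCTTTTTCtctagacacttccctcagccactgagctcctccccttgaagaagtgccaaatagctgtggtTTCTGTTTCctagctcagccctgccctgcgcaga
The motifs were the TATA box (TATAAA), the GC box (GGGCGG), the CCAAT box (CCAAT), the AP-1 site (TGANTCA), the core of the interferon-stimulated response element (GAAANNGAA), the HNF1 core (GTTAAT) and an HNF4 site (CAAAGTCCA). The interferon-stimulated core was shortened by its last letter, an A, after its matches had been seen, which raised the share of windows that hold it. Among 32851 RefSeq promoter windows of this length they were present in 13.6%, 35.7%, 37.4%, 7.81%, 8.56%, 7.10% and 0.475%, in that order. The Lgals9 window held the interferon-stimulated core at 2 places, 54 bases before and 16 bases after the start of the gene, both on the minus strand of the window. The Lgals2 window held a single HNF1 core, the Lgals4 window a CCAAT box and a GC box, and the Lgals3bp window none of the 7. The capital blocks do not overlap one another. Such matches describe the letters in these windows and are not evidence of binding.

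Lgals1 and Lgals2, both prototype galectins, were the most abundant members by TPM, with 1763 to 4476 and 1116 to 4991 TPM over the 8 libraries. The order of members and their shares depend on the unstated gene lengths. Annotated exon lengths ran from 818 bases for Lgals2 to 5489 bases for Lgals8. In the WT library of 2838c3 they ranked 18 and 19 among all identifiers by TPM, and in the 6419c5 KO library Lgals2 ranked 16. Lgals4, a tandem-repeat galectin of the gut epithelium, spanned 90.9 to 1910 TPM, Lgals3 454 to 1068 TPM and Lgals3bp, a secreted glycoprotein that binds galectin-3, 85.4 to 970 TPM. Lgals9, a tandem-repeat galectin known as an interferon-inducible gene, lay between 202 and 308 TPM. Lgals8, the tandem-repeat galectin that marks damaged endosomes, was the lowest member, between 29.0 and 71.6 TPM. Of the other galectin genes, Lgalsl, the galectin-like gene, had 8.40 to 48.1 TPM. It was above Lgals8 in both 6419c5 libraries and below it in every other library. The rest gave little: Lgals7, the keratinocyte galectin, had at most 1.31 TPM and Lgals12, the adipocyte galectin, at most 0.228 TPM. Grifin, the lens galectin, was listed at 0 in all 8 libraries. No identifier was named Lgals6, a close copy of Lgals4 carried by some mouse strains, and it was not analysed here, so reads from such a copy would be counted under Lgals4 or lost.

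The 6 galectins together made up 5467, 4831, 9740 and 9525 TPM in the KO libraries of 6694c2, 2838c3, 6499c4 and 6419c5, against 8125, 10165, 8902 and 7854 TPM in the WT libraries. In bulk RNA, fewer expressing cells and less RNA per cell cannot be told apart. The sum was lower in KO in the first pair of lines and higher in KO in the other, and the groups overlapped. Lgals1 and Lgals2 accounted for 63.6% to 79.6% of it in KO and 66.4% to 87.9% in WT libraries. Lgals4 held 1.88% of the galectin TPM in the KO and 1.05% in the WT library of 2838c3, but 14.4% to 18.9% in the KO and 8.43% to 21.5% in the WT libraries of the other 3 lines.

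**Figure D1:**
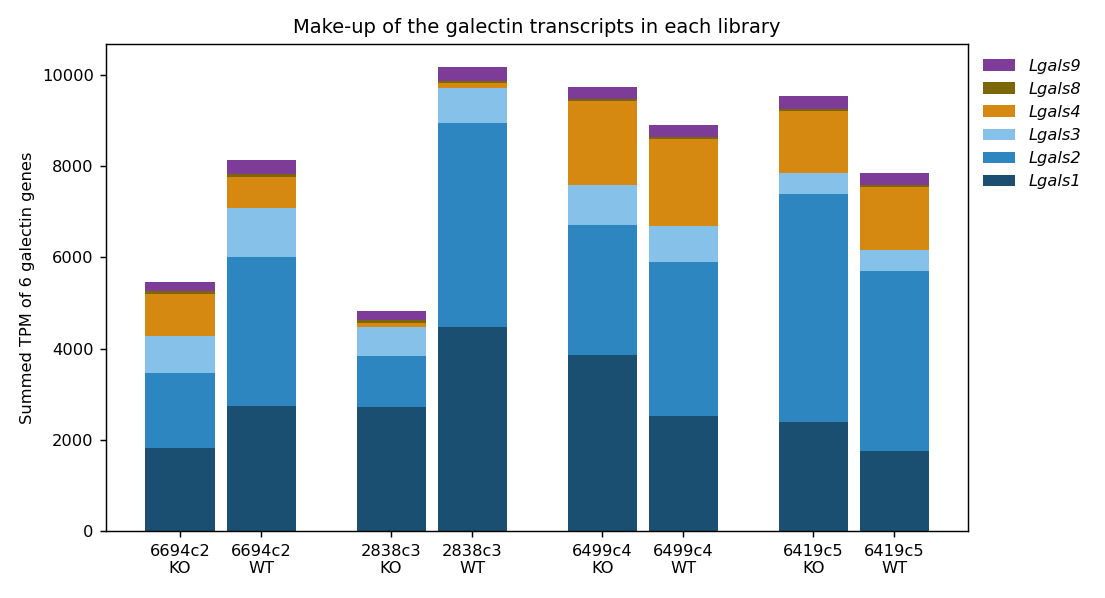
Stacked TPM of the 6 galectin genes (y axis) in each of the 8 libraries (x axis, KO left of WT for each line), with 1 colour per gene. Lgals1 and Lgals2 fill between 63.6% and 87.9% of every bar, and the Lgals4 block is almost missing in 2838c3.

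Differences between lines are given first, with the KO and WT library of a line taken as its 2 libraries. In the limma F-test on the line terms 3 of the 7 genes passed an adjusted p of 0.05 (Lgals4, Lgals3bp and Lgals8), beside 16.9% of all 12900 genes tested. Of the 42 tests of a member between 2 lines 11 passed (26.2%), beside 8.41% of all such tests, with p-values adjusted over all genes and the 6 pairs of lines. Lgals3bp gave 5 of the 11 and Lgals4 gave 4, while Lgals3 and Lgals8 gave 1 each. Lgals1, Lgals2 and Lgals9 gave 0.

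Lgals4 had 1846 and 1910 TPM in the KO and WT libraries of 6499c4, 1369 and 1395 TPM in 6419c5, 932 and 685 TPM in 6694c2 and 90.9 and 106 TPM in 2838c3. Every library of the other lines lay far above both libraries of 2838c3, and the line means were 19.0-fold apart. The limma F-test between lines gave an adjusted p of 0.00038, and the highest and lowest lines differed by 4.24 on the log2(TPM + 1) scale (SE 0.23, adjusted p = 0.00038). Going down the order, 6499c4 and 6419c5 did not pass (log2 difference 0.44, SE 0.23, limma adjusted p = 0.28), nor did 6419c5 and 6694c2 (0.79, SE 0.23, limma adjusted p = 0.087). The step from 6694c2 down to 2838c3 passed, at 3.01 (SE 0.23, limma adjusted p = 0.00089). Without 2838c3 the highest and lowest of the remaining lines were 1.23 apart, and the F-test still passed (limma adjusted p = 0.018, with a range of 0.00030 to 0.018 over all alternatives).

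Lgals3bp followed the same order of lines. Its level was 954 and 970 TPM in the KO and WT libraries of 6499c4, 553 and 763 TPM in 6419c5, 225 and 339 TPM in 6694c2 and 95.6 and 85.4 TPM in 2838c3. The libraries of the 4 lines did not overlap, and the line means were 10.6-fold apart (limma F-test, adjusted p = 0.00099). The highest pair in the order, 6499c4 and 6419c5, did not pass (log2 difference 0.57, SE 0.24, limma adjusted p = 0.20). Both steps below it did, with 1.23 (SE 0.24, limma adjusted p = 0.029) from 6419c5 to 6694c2 and 1.60 (SE 0.24, limma adjusted p = 0.012) from 6694c2 to 2838c3. Without 2838c3 the distance between the highest and lowest line was 1.80 in place of 3.40, and the F-test still passed (limma adjusted p = 0.0049). Lgals4 and Lgals3bp were the 2 members of 7 with their lowest line mean in 2838c3 and their highest in 6499c4, an order that 5.80% of all genes had. The lines 2838c3 and 6499c4, known for T-cell-rich tumours, thus held the opposite ends of both genes.

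Lgals8 ran in another order, with 59.7 and 71.6 TPM in the KO and WT libraries of 6694c2, 53.1 and 42.2 TPM in 2838c3, 34.0 and 38.2 TPM in 6419c5 and 29.0 and 31.8 TPM in 6499c4. Its highest and lowest lines differed by 1.08 (SE 0.21, limma adjusted p = 0.029), and no step between neighbours passed (limma adjusted p of 0.24, 0.31 and 0.53 going down). The F-test for Lgals8 was close to the threshold (limma adjusted p = 0.046) and missed it without 6694c2 (0.22), without 6499c4 (0.17), without 6419c5 (0.11), and with no filter on low values (0.079) or no variance trend (0.062). Heatr1, on the opposite strand, had line means of 34.9 TPM in 2838c3, 30.9 in 6694c2, 17.8 in 6499c4 and 13.7 in 6419c5. The part of Heatr1 in the Lgals8 values was not tested. Lgals3 had 797 and 1068 TPM in the KO and WT libraries of 6694c2, 873 and 785 TPM in 6499c4, 632 and 772 TPM in 2838c3 and 463 and 454 TPM in 6419c5. Both 6419c5 libraries lay below the other 6, and no step between neighbours passed (limma adjusted p of 0.71, 0.54 and 0.15 going down). The step from 6694c2 to 6419c5 passed as a pair (1.01, SE 0.23, limma adjusted p = 0.043), while the F-test did not (limma adjusted p = 0.067) but passed with median-ratio scaling (0.035), quantile normalization (0.047) and without 2838c3 (0.028).

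Lgals1, Lgals2 and Lgals9 did not pass between lines (limma F-test, adjusted p of 0.35, 0.40 and 0.91). For Lgals9 the line means were 1.10-fold apart, and the pair of lines farthest apart differed by 0.17 with an SE of 0.24. Lgalsl was low in a single line: 8.40 and 10.5 TPM in the KO and WT libraries of 6499c4 against 37.0 to 48.1 TPM in the other 3 KO and 40.6 to 46.1 TPM in the other 3 WT libraries (limma F-test, adjusted p = 0.0017).

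**Figure D2:**
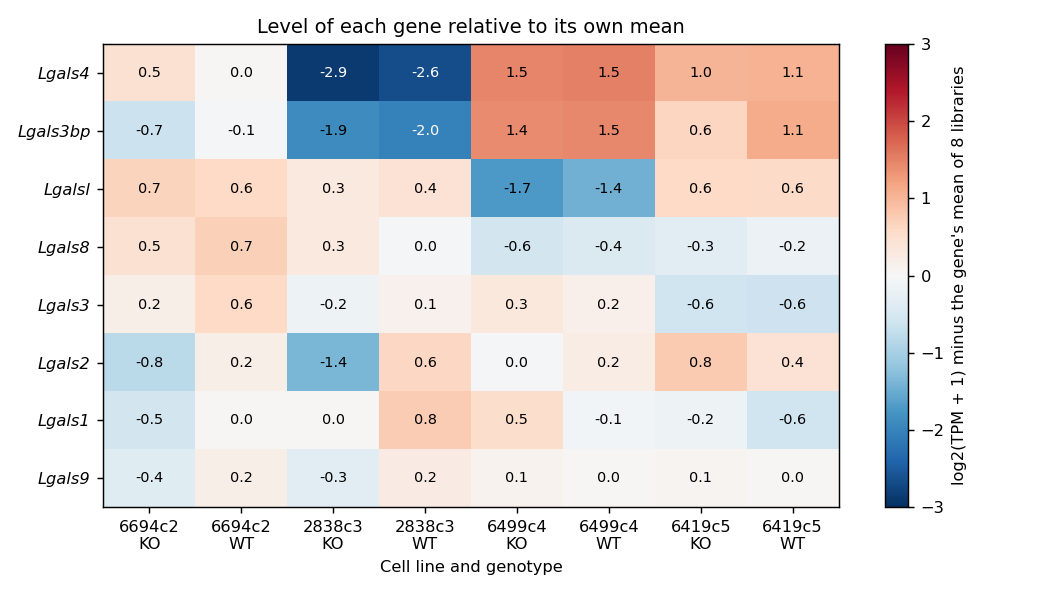
Colour and printed number give log2(TPM + 1) of a gene (rows) minus its own mean over the 8 libraries (columns, KO left of WT in each line), with red above and blue below the mean. Lgals4 and Lgals3bp are lowest in both 2838c3 libraries and highest in both 6499c4 libraries, while Lgals9 stays near its mean.

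No member passed between KO and WT: 0 of 7, beside 0 of all 12900 genes (0%) at a limma adjusted p under 0.05 in the fit with genotype and line. C1galt1c1, the edited gene, also missed this threshold, with a log2 difference of -1.42 (SE 0.15, limma adjusted p = 0.28) and a lower level in KO in 4 of 4 lines. Its unadjusted limma p of 3.2e-05 had rank 1 among the 12900 genes. A count of 0 of 7 past this threshold therefore does not show that the members were unchanged. At an unadjusted limma p under 0.05 there were again 0 of the 7, beside 8.81% of all genes (7.95% lower and 0.86% higher in KO). The excess of lower genes was much smaller with median-ratio scaling and quantile normalization, as given with the lists below. The median log2 difference was -0.13 over the members and -0.15 over all genes, so that a member at -0.15 kept pace with the whole table. Differences below are KO minus WT on the log2(TPM + 1) scale, with the value relative to all genes where named.

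**Figure D3:**
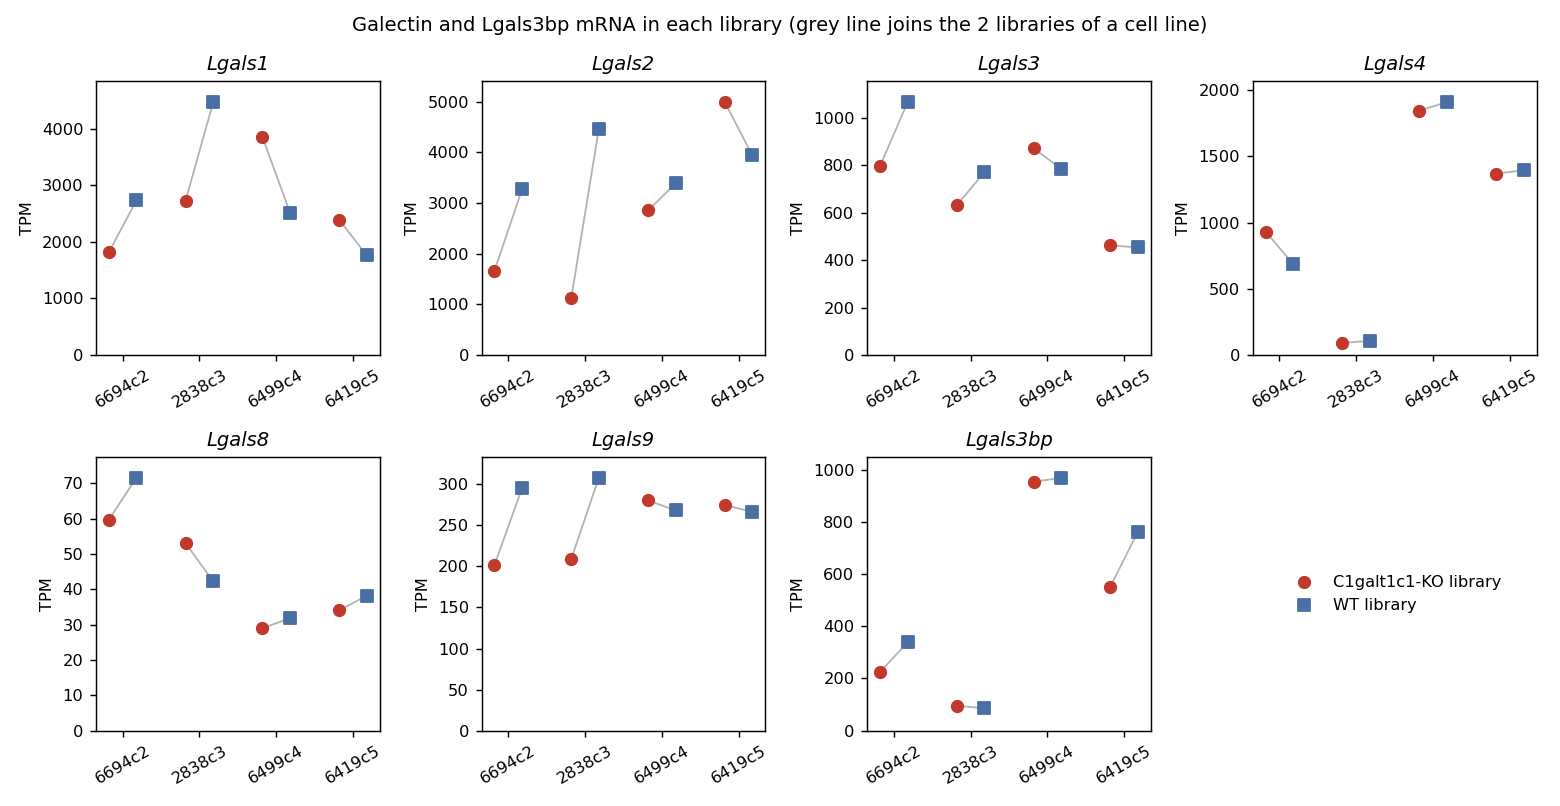
TPM (y axis, from 0) of each member in the 8 libraries, with the KO library (red circle) left of the WT library (blue square) of each cell line (x axis) and a grey line joining them. Lgals2 has its largest gap in 2838c3, with 1116 TPM in the KO and 4460 TPM in the WT library, and Lgals4 is lowest in both libraries of 2838c3.

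Lgals2 had 1659, 1116, 2852 and 4991 TPM in the KO libraries of 6694c2, 2838c3, 6499c4 and 6419c5, against 3270, 4460, 3386 and 3938 TPM in the WT libraries. The KO library held 50.7%, 25.0%, 84.2% and 127% of the WT level, so 3 lines were lower in KO and 6419c5 was higher. The KO libraries ran from the lowest to the highest of all 8, and the group averages were 2655 ± 1718 TPM in KO and 3763 ± 548 TPM in WT (SD, n = 4 libraries each). limma put the difference at -0.72 (SE 0.37, 95% interval -1.60 to 0.16, unadjusted p = 0.094, adjusted p = 0.58), which is -0.57 against the median of all genes. It was -0.29 without 2838c3, the line with the largest gap, and -1.07 without 6419c5. Relative to the median gene of that library pair the Lgals2 difference in 2838c3 was -1.92, and 1.57% of genes lay at or below it. Cdc42ep1, on the opposite strand, stood at 57.9, 137, 75.0 and 103 TPM in the same KO libraries, against 105, 99.6, 59.4 and 129 TPM in the WT libraries, and its part in the Lgals2 values was not tested.

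Lgals1 split the lines evenly. It had 1817 and 2731 TPM in the KO libraries of 6694c2 and 2838c3, against 2736 and 4476 TPM in the WT libraries, but 3859 and 2393 TPM in the KO libraries of 6499c4 and 6419c5, against 2520 and 1763 TPM in the WT libraries. The KO level was 66.4% and 61.0% of WT in the first pair and 153% and 136% in the second. The average was 2700 ± 860 TPM in KO and 2874 ± 1147 TPM in WT (SD, n = 4 libraries each). The limma estimate of -0.06 (SE 0.27, 95% interval -0.72 to 0.59, adjusted p = 0.94) was 0.09 relative to all genes, and its sign turned with median-ratio scaling, quantile normalization and structural RNA left out, without 6694c2 (0.11) and without 2838c3 (0.16). Relative to the median gene of the same library pair the differences were -0.36 in 6694c2, -0.63 in 2838c3, 0.72 in 6499c4 and 0.60 in 6419c5, with 97.3% and 93.8% of genes at or below the values of 6499c4 and 6419c5.

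Lgals9 and Lgals3 took the same directions with smaller differences. Lgals9 had 202 and 209 TPM in the KO libraries of 6694c2 and 2838c3, against 295 and 308 TPM in WT, and 280 and 275 TPM in the KO libraries of 6499c4 and 6419c5, against 268 and 266 TPM in WT. Its KO level was thus 68.3% and 67.8% of WT in the first pair of lines and 104% and 103% in the second, with a limma estimate of -0.25 (SE 0.17, 95% interval -0.66 to 0.16, adjusted p = 0.62), or -0.10 relative to all genes. The Lgals9 estimate was -0.091 with median-ratio scaling, -0.14 with quantile normalization, -0.16 with structural RNA left out, and -0.15 without 6694c2 and likewise without 2838c3. For Lgals3, the galectin with the flexible tail, the KO level was 74.7% and 81.8% of WT in 6694c2 and 2838c3 and 111% and 102% in 6499c4 and 6419c5. Its limma estimate of -0.13 (SE 0.16, 95% interval -0.51 to 0.25, adjusted p = 0.78) turned to 0.03 with median-ratio scaling. The directions of Lgals1, Lgals3 and Lgals9, lower in KO in 6694c2 and 2838c3 and higher in KO in 6499c4 and 6419c5, were noticed after their values were seen, and 3.84% of all genes had them.

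The tandem-repeat galectins Lgals4 and Lgals8 were each higher in KO in a single line. The Lgals4 KO level was 136% of WT in 6694c2 and 85.4%, 96.6% and 98.1% in 2838c3, 6499c4 and 6419c5, with averages of 1059 ± 746 TPM in KO and 1024 ± 792 TPM in WT (SD, n = 4 libraries each). Relative to the median gene of the library pair the Lgals4 difference in 6694c2 was 0.67, with 93.2% of genes at or below it. Its limma estimate was 0.04 (SE 0.16, 95% interval -0.35 to 0.42, adjusted p = 0.95), 0.19 with median-ratio scaling and -0.10 without 6694c2. Lgals8 stood at 83.4%, 126%, 91.2% and 89.1% of WT in 6694c2, 2838c3, 6499c4 and 6419c5, with a limma estimate of -0.06 (SE 0.15, 95% interval -0.42 to 0.30, adjusted p = 0.91) whose sign turned under all 3 other scalings and without 6694c2 (0.011). Lgals3bp was at 66.4% and 72.4% of WT in 6694c2 and 6419c5 and at 112% and 98.4% in 2838c3 and 6499c4. The low pair are the lines whose KO libraries held 13.8% and 10.9% structural RNA, mostly unnamed identifiers, and a link was not tested. Relative to the median gene of the library pair the Lgals3bp difference was -0.36 in 6694c2 and -0.31 in 6419c5. It was 0.24 in 2838c3 and 0.08 in 6499c4. The limma estimate for Lgals3bp was -0.23 (SE 0.17, 95% interval -0.64 to 0.18, adjusted p = 0.65), or -0.08 relative to all genes. It was -0.14 with structural RNA left out, -0.071 with median-ratio scaling and -0.095 with quantile normalization. Without 6694c2 it was -0.11, without 2838c3 -0.36, without 6419c5 -0.15, and without both 6694c2 and 6419c5 0.07.

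**Figure D4:**
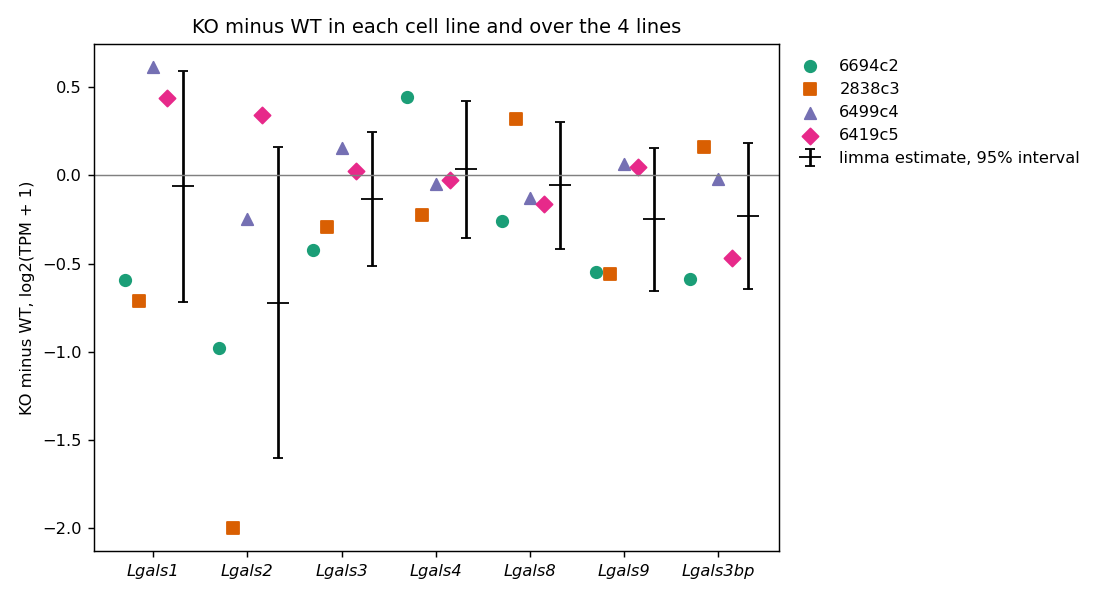
KO minus WT on the log2(TPM + 1) scale (y axis) for each member (x axis), with 1 symbol per cell line and the limma estimate with its 95% interval in black. Each interval includes 0, and the lines lie on both sides of 0 for every gene.

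Ratios of 2 members within a library do not depend on library scaling. The Lgals3 to Lgals1 TPM ratio was 0.439, 0.231, 0.226 and 0.193 in the KO libraries of 6694c2, 2838c3, 6499c4 and 6419c5, against 0.390, 0.173, 0.312 and 0.257 in the WT libraries. It was higher in KO in the first pair of lines and lower in the second, with a mean log2 difference of -0.07 ± 0.44 (SD, n = 4 lines, exact two-sided paired sign-flip test, p = 0.875). At least 2 of the 16 sign patterns of 4 lines are always as extreme, so this sign-flip test cannot pass 0.05. The Lgals2 to Lgals1 ratio, chosen after the values were seen, was 0.913, 0.409, 0.739 and 2.09 in the KO libraries, against 1.20, 0.997, 1.34 and 2.23 in the WT libraries. It was lower in KO in 4 of 4 lines, by -0.39, -1.29, -0.86 and -0.10 on the log2 scale, with a mean of -0.66 ± 0.52 (SD, n = 4 lines). No test is given for a ratio chosen in this way.

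The genes with the most similar profile over the 8 libraries were taken by Pearson's r of log2(TPM + 1), as a description, since libraries of a line share their cells and the named protein-coding genes among the 12900 tested were searched. For Lgals3bp they were Ifitm3, an interferon-induced antiviral membrane protein (r = 0.996), and the small GTPase Rab32 (0.982). Ifitm3 had 125 and 129 TPM in the KO and WT libraries of 6499c4, 36.0 and 64.1 TPM in 6419c5, 9.13 and 14.0 TPM in 6694c2 and 1.50 and 0.953 TPM in 2838c3. Rab32 ran from 0.0743 TPM in the KO library of 2838c3 to 28.0 TPM in the WT library of 6499c4. For Lgals4 the nearest were Odad1 (0.988), which was at most 2.96 TPM, and Rph3al (0.986). For Lgals1 they were Adamts4 (0.980), which was at most 2.67 TPM, and Akr1a1 (0.971). Lgals2 was nearest to Morn2 (0.960) and the nucleosome-binding gene Hmgn2 (0.960), and Lgals9 to Rsu1 (0.972) and the replication factor C subunit Rfc2 (0.949). Lgals3 was nearest to the co-chaperone Fkbp4 (0.963) and Ptpdc1 (0.959), which was at most 5.12 TPM. Lgals8 was nearest to Ppp3cc (0.968) and Itsn2 (0.967). Between members the highest values were 0.947 for Lgals4 with Lgals3bp and 0.865 for Lgals2 with Lgals9.

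Genes that make or carry galectin ligands were counted beside the members. None of the tested genes of the lists below passed the limma adjusted threshold between KO and WT, as none did in the whole table. At an unadjusted p under 0.05, 7.95% of all genes were lower and 0.86% higher in KO, and the median log2 difference of all genes was -0.15, the values beside which each list stands. This lean depended on the scaling, with 1026 genes lower and 111 higher as reported. With median-ratio scaling 347 genes were lower and 292 higher, and with quantile normalization 333 and 322. The list counts below hold for the TPM scale only and were not repeated with the other scalings. The list of enzymes for N-acetyllactosamine, N-glycan branching and O-glycan core 2 branching had 19 tested genes, of which 3 were lower and 1 higher in KO at that threshold, with a median of -0.15. None of those 4 is an N-glycan branching enzyme. Of all genes 18.5% were lower in KO in all 4 lines. For genes picked by small p in a fit paired by line, 1 shared direction is likely in advance. It adds no support here or in the lists below. The 3 of smallest p were lower in KO in all 4 lines. They were B4galt6, a galactosyltransferase of glycosphingolipids, at 63.1 ± 19.7 TPM in KO and 92.1 ± 33.6 TPM in WT, Gcnt3, a core 2 and core 4 branching enzyme, at 63.9 ± 35.0 and 89.2 ± 57.1 TPM in KO and WT, and the core 2 enzyme Gcnt1, at 37.7 ± 17.0 and 49.1 ± 18.7 TPM in KO and WT (SD, n = 4 libraries). The gene that was higher, named after its values were seen, was Gcnt4, another core 2 enzyme, with a log2 difference of 0.43 (SE 0.17). Of 7 tested sialyltransferases that cap galactose 1 was lower, St3gal5, the GM3 synthase, at 33.8 ± 23.8 TPM in KO and 51.7 ± 38.3 TPM in WT (SD, n = 4 libraries), and the median was -0.17. St3gal4 and St3gal6 followed, at -0.27 (SE 0.14) and -0.34 (SE 0.19).

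Of 23 tested glycoprotein partners 5 were lower and 0 higher in KO at an unadjusted p under 0.05, with a median of -0.17. Lamc1, the laminin gamma-1 chain, stood at 106 ± 18.9 TPM in KO and 149 ± 31.4 TPM in WT, the mucin Muc1 at 401 ± 240.0 and 579 ± 294 TPM in KO and WT, and the TGF-beta receptor Tgfbr2 at 48.8 ± 9.33 and 68.1 ± 8.87 TPM in KO and WT (SD, n = 4 libraries), each lower in 4 of 4 lines. Their log2 differences of -0.49, -0.58 and -0.48 had SEs of 0.14, 0.17 and 0.16 and an adjusted limma p of 0.56 each. The other two, named after their values were seen, were the receptor tyrosine kinase Met (-0.44, SE 0.15) and the lysosomal membrane glycoprotein Lamp1 (-0.34, SE 0.13). In the damaged lysosome list, which holds autophagy genes that act where galectin-3 and galectin-8 mark broken vesicles, 0 of 16 tested genes had an unadjusted p under 0.05 (median -0.09). Gabarapl2 and Map1lc3b were at -0.29 and -0.28, and the autophagy receptor Sqstm1 at 0.67 (SE 0.35), higher in KO in 4 of 4 lines, with 1763 TPM in the KO and 402 TPM in the WT library of 6694c2.

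The interferon-stimulated list had a median of -0.07 over 16 tested genes, 2 of them lower in KO at an unadjusted p under 0.05. These were Ifit2 and Gbp2, both low, at 2.86 ± 4.24 and 1.05 ± 1.22 TPM in KO and 4.59 ± 3.74 and 1.87 ± 1.58 TPM in WT (SD, n = 4 libraries), and Bst2, tetherin, followed at 0.28 (SE 0.16). Between lines 12 of the 16 passed the F-test, beside 16.9% of all genes, and 8 had their lowest line mean in 2838c3, where 16.9% of all genes did. The Lgals3bp order of lowest in 2838c3 and highest in 6499c4 was found in 0 of the 16, beside 5.80% of all genes. Ifitm3, which had that order, is not among the 16. Of 18 tested genes of the gut and classical subtype list, which marks the gland-like form of pancreatic cancer and to which Lgals4 belongs in human tumours, 4 were lower and 0 higher in KO at an unadjusted p under 0.05, with a median of -0.41. Vsig1 stood at 96.8 ± 17.1 TPM in KO and 163 ± 22.0 TPM in WT and the tetraspanin Tspan8 at 831 ± 277 TPM in KO and 1173 ± 270.0 TPM in WT (SD, n = 4 libraries), each lower in 4 of 4 lines. The trefoil factor gene Tff2 had 228, 63.6, 1.32 and 4.71 TPM in the KO libraries of 6694c2, 2838c3, 6499c4 and 6419c5, against 346, 149, 3.39 and 5.47 TPM in WT. The fourth of these genes, the brush border protein Vil1, named after its values were seen, had a log2 difference of -0.62 (SE 0.24). The Tff2 order of lines was not that of Lgals4. Lowest in 2838c3 and highest in 6499c4, as Lgals4 was, held for 1 of the 18 genes (Cdh17), beside 5.80% of all genes.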

How the data were processed

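Polyadenylated RNA of 8 mouse cell culture libraries was sequenced as paired ends, per the labels' protocols. The authors deposited 1 table of TPM, 49315 identifiers by 8 libraries. The submitters' processing notes name STAR 2.7.11b, featureCounts 2.1.1, cutadapt 5.1, DESeq2 2.11.40.8 and the mm39 build. Which gene lengths and annotation made the TPM is not given. Names and positions came from GENCODE vM39 (GRCm39, 45505 identifiers matched), promoters from RefSeq (GRCm38.p6, 6 of 7 members matched).

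Reads per library were estimated from TPM steps and annotated exon lengths, and 67.2% to 69.7% of low values came within 0.1 of a whole read. Whole reads were therefore not recovered and no count test was run. The 12900 genes that reached 1 TPM in 4 or more libraries were tested with limma 3.58.1 (R 4.3.3) on log2(TPM + 1), a scale that understates changes of low genes. The model held genotype, line and a variance trend. P-values were Benjamini-Hochberg adjusted over all genes, and over genes and pairs for the 6 pairs of lines. The line is a block because KO and WT libraries share their line, and their deviations from group means correlated at 0.66, 0.42, 0.79 and 0.75 in 6694c2, 2838c3, 6499c4 and 6419c5. Nothing says that a culture was repeated, so the error in the limma tests of this model comes from the spread of KO minus WT between lines. Tests between lines took the KO and WT library of a line as its 2 libraries, not as repeats of 1 culture. The fit was run on simulated data, where recovery of changed genes was incomplete and, like the number of false calls, varied with the random seed. The members, lists and motifs were chosen with earlier results of these data known. Named genes are the members, other galectins, C1galt1c1, the 3 genes of smallest p per list and the 2 most correlated named protein-coding genes per member. Alternatives were a pseudocount of 0.1, other filters and scalings, structural RNA left out (unnamed identifiers and small RNA classes), other variance models, no line block, and lines left out. Python 3.11.15 with pandas 2.3.3 was used.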

Additional observations from a re-analysis of the deposited data

Results flagged for a closer look

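For every member at least 1 line was higher and another lower in KO than in WT. With 1 library per genotype in a line these differences between lines were not tested. The distance between the highest and the lowest line, in KO minus WT on the log2(TPM + 1) scale, was 2.34 for Lgals2 (6419c5 against 2838c3) and 1.33 for Lgals1 (6499c4 against 2838c3). It was 0.75 for Lgals3bp (2838c3 against 6694c2), 0.67 for Lgals4 (6694c2 against 2838c3) and 0.62 for Lgals9 (6499c4 against 2838c3). For Lgals8 (2838c3 against 6694c2) it was 0.58 and for Lgals3 (6499c4 against 6694c2) 0.57. In 21 groups of 4 values (KO, WT and their difference for each member) none had a value beyond Dixon's 95% limit of 0.829, which chance passes in about 1 of 20 groups.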

How the results depend on the processing

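0 genes passed between KO and WT under each of 14 alternatives. Without the replicate block, the pairing of libraries by line, the count was also 0 and no call of a member changed. Genes past the threshold between lines, 2178 as reported, were 745 to 3785 with a line left out (3785 without 2838c3, 758 without 6499c4 and 745 without 6419c5) and 1077 without both 6694c2 and 6419c5. Lgals4 and Lgals3bp passed between lines under all 13 alternatives. Lgals8 lost the call at a log2 range of 1.08 with no filter and with no variance trend, and at 0.62 without both lines, with 0.62 to 1.08 over the line omissions. Lgals3 gained it at 1.21 with median-ratio scaling and 1.03 with quantile normalization, and at 1.01 without 2838c3, with 0.40 to 1.01 over the omissions of 1 line and 0.25 without both lines. The KO minus WT sign turned for Lgals1 with median-ratio scaling (0.097), quantile normalization (0.012) and structural RNA left out (0.024). It turned for Lgals3 with median-ratio scaling (0.026), and for Lgals8 with the same 3 settings as Lgals1 (0.099, 0.085 and 0.028) and without both lines (0.097). Without both lines it also turned for Lgals4 (-0.14) and Lgals3bp (0.069). These members passed under no setting, and beyond the construction of each setting the cause was not tested. With a line left out KO minus WT spanned -0.29 to 0.16 for Lgals1, -0.10 to 0.12 for Lgals4 and -0.18 to 0.011 for Lgals8, and the Lgals3 to Lgals1 ratio -0.24 to 0.059. The TPM keep no depth, and 4 lines with 1 library per genotype set the limit.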

Other observations

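Lgals1 and Lgals2 lie 70935 bases apart on chromosome 15 of GRCm39, with 4 protein-coding genes between them (Gga1, Sh3bp1, Gm49510 and Pdxp). Their levels ran little alike over the 8 libraries (Pearson's r of 0.187 between log2(TPM + 1) values, a description over libraries that share lines). In 6499c4 Lgals1 was at 153% of WT in KO while Lgals2 was at 84.2%.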
